A study of Mus musculus with 12 samples.

Results

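Footprints of S38A and WT cells were compared in mitosis, in 4 of the 12 ribosome profiling libraries of the series: both libraries of RPL12 S38A mitotic cells and both of RPL12 WT mitotic cells. Members were chosen by their labelled genotype and cell cycle state, not by any measured value. The cells are 19PP, a mouse B cell lymphoma line grown from Rag2-/-γC-/- mice whose marrow came from donors carrying Cγ1-Cre and the Myc/P110*flSTOP alleles, and the cultures were a subline named 19DN from which the GFP and hCD2 reporters had been removed. All 4 libraries therefore share the Myc and P110* transgenes, switched on by a Cre driven from Cγ1. Both groups received nocodazole at 100 ng/mL for 8 hr, were washed, and stood 10 min in fresh medium before harvest in cycloheximide at 100 µg/ml. WT cells carry unaltered RPL12, and S38A cells carry alanine in place of serine 38. How many clones stand for each genotype, and whether the 2 libraries of a group are separate cultures, is not given in the labels, so p-values here reflect only library-to-library spread, part or all of which may be technical. The other groups used here for comparison are WT and S38A cells labelled asynchronous, and S38D cells of both states, with aspartate at the same position. The labels attach 1 treatment text to all libraries and do not describe the handling of asynchronous cells apart from it.

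RPL12, or uL11, sits at the base of the stalk of the large ribosomal subunit, where elongation and other GTPase factors dock. Serine 38 can be phosphorylated, alanine cannot be, and aspartate carries a negative charge as phosphoserine does. Nocodazole depolymerises microtubules and holds cells in mitosis through the spindle checkpoint, and after it is washed out the spindle can re-form. Ribosome profiling counts the mRNA stretches that ribosomes cover, so a gene's level combines its mRNA amount with how heavily that mRNA is translated, and fewer mRNA molecules cannot be told apart from fewer ribosomes on each. Mouse Rpl12 lies on chromosome 2 from 32961712 to 32964045 (GRCm38.p6, RefSeq). The files give Ensembl gene IDs without symbols and the name table pairs none of them, so genes are named by ID, RPL12 itself was not located, no promoter or other sequence could be tied to a gene, and B cell identity was not checked against marker genes.

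The WT mitotic libraries held 300205 and 393141 reads in coding sequence and the S38A mitotic libraries 440741 and 386376. Of 22520 gene IDs, 9578 to 9751 had a read in each. The spread between the 2 libraries of a group was 1.17 times that of counting alone in WT and 1.25 times in S38A, as chi-square over its degrees of freedom. Alignments to more than 1 place were 73.0% of all alignments in each WT library and 70.4% and 65.8% in the S38A libraries. Uniquely aligned reads outside counted features were 34.6% and 29.0% in WT and 27.5% and 25.6% in S38A. The 100 most abundant genes took 20.2 and 20.7% of coding reads in WT and 20.03 and 19.7% in S38A. All 3 shares were higher in both WT libraries than in either S38A library, and their part in the differences given next was not tested.

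The comparison asks which genes carried more or fewer footprints in mitotic cells with the unphosphorylatable serine 38 substitution. Footprints of 885 of 6692 genes differed (13.2%; edgeR quasi-likelihood test, adjusted p under 0.05). Of all genes tested, 521 (7.79%) were higher in S38A and 364 (5.44%) lower. Unadjusted p was under 0.05 for 1723 genes. Among the called genes, 521 of 521 higher and 362 of 364 lower ones had S38A and WT libraries that did not overlap. Such separation was frequent, as 54.6% of all genes tested, the called ones included, showed it. The levels are relative to each library's total, and the median log2 difference over all genes was -0.01, so a change of total footprints per cell would not be seen. DESeq2 called 345 genes, and edgeR called 471 without WT mitotic replicate 1, 467 without WT mitotic replicate 2, 443 without S38A mitotic replicate 1 and 550 without S38A mitotic replicate 2.

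**Figure D1:**
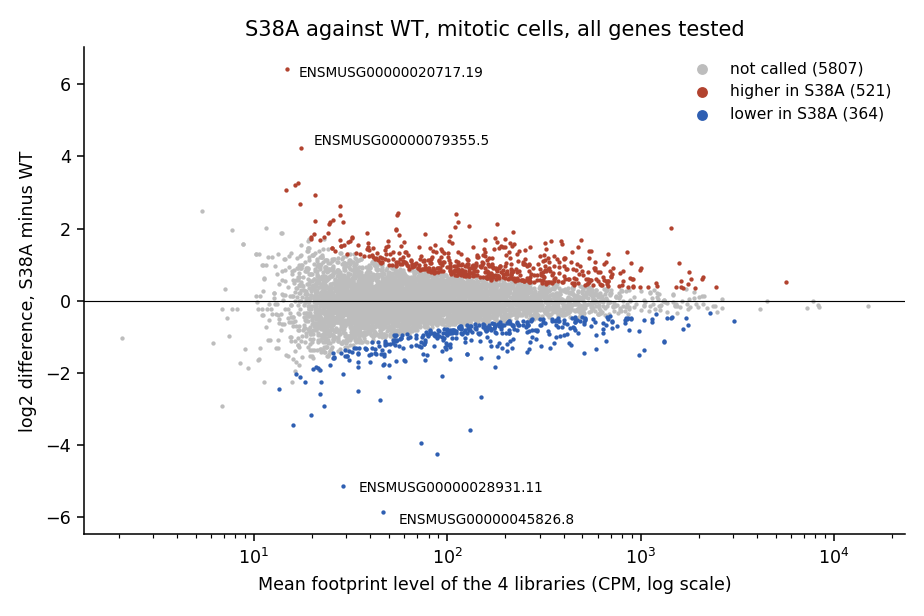
Each point is 1 of the 6692 genes tested, with the mean level of the 4 mitotic libraries in CPM on a log axis and the log2 difference of S38A from WT on the other axis. The 521 genes called higher are red, the 364 called lower are blue, and the genes with the largest called differences in each direction are named.

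Most called differences were moderate in size. Of the higher genes, 22 were raised at least 4-fold, 194 between 2- and 4-fold, 233 between 1.5- and 2-fold and 72 by less than 1.5-fold. Of the lower genes, 20, 131, 163 and 50 fell in the same ranges of size. The median log2 difference was 0.92 for the higher and -0.89 for the lower genes. The smallest called sizes on the log2 scale were 0.35 and 0.33. The called genes were better covered than average, with a median level of 163 CPM for the higher and 140.2 CPM for the lower genes against 70.1 CPM for all genes tested.

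The largest called rise belonged to ENSMUSG00000020717.19. It had 0 reads in both WT mitotic libraries and 13 and 11 reads in the S38A mitotic libraries, or 30.4 and 29.1 CPM (counts scaled to 1000000 per library, after TMM). The S38A read counts were close to each other, and WT showed no read of the gene at this depth. Groups that do not overlap in mitotic cells were a condition for naming the gene. Over all coding reads it was at least 6.71-fold higher in S38A, against a floor of 3 reads over the WT group (adjusted p = 0.000815, edgeR). Asynchronous S38A libraries had 33.9 and 32.3 CPM, and asynchronous WT libraries had 11.7 and 0 CPM. The gene was therefore highest in S38A in both states, with no overlap with WT in either. In S38D it had 15.3 and 0 CPM in mitotic and 14.4 and 0 CPM in asynchronous libraries, and its difference from S38A in mitotic cells did not pass the threshold (adjusted p = 0.0990, edgeR).

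ENSMUSG00000079355.5 showed the other large rise. The WT mitotic libraries had 3.35 and 0 CPM, from 1 read in all, and the S38A mitotic libraries had 32.7 and 34.4 CPM, from 14 and 13 reads. The ratio of S38A to WT was 22.6 with a 95% counting interval of 3.73 to 927 (adjusted p = 0.000270, edgeR). The interval is wide because WT had a single read. The fitted log2 difference, 4.22, was 6.601 without WT mitotic replicate 1 and 3.22 without WT mitotic replicate 2. In asynchronous cells WT had 15.6 and 3.32 CPM, S38A 60.0 and 67.9 CPM and S38D 32.8 and 39.9 CPM, so that the 3 genotypes did not overlap. Mitotic S38D libraries had 3.82 and 0 CPM. These lay with WT, and the log2 difference of S38D from S38A in mitotic cells was -3.96 ± 0.91 (SE, adjusted p = 0.00126, edgeR), in a comparison that called 12.9% of genes.

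In the other direction, ENSMUSG00000045826.8 had 93.9 and 90.7 CPM in WT mitotic libraries, from 28 and 35 reads. The S38A mitotic libraries had 2.33 and 0 CPM, from 1 read in all. WT exceeded S38A 75.2-fold, with a 95% counting interval of 13.0 to 3015 (adjusted p = 3.07e-10, edgeR). The fitted log2 difference, -5.86, was -7.99 without S38A mitotic replicate 1 and -5.10 without S38A mitotic replicate 2. Asynchronous libraries separated likewise, with 86.0 and 76.3 CPM in WT and 0 reads in both S38A libraries. S38D mitotic libraries had 0 and 3.51 CPM, and the log2 difference of S38D from WT, measured against the same WT libraries, was -5.41 ± 0.71 (SE, adjusted p = 2.29e-07, edgeR), where 1.82% of genes were called. S38D and S38A could not be told apart for this gene in mitosis, with 1 read in each group and a log2 difference of 0.45 ± 1.68 (SE, adjusted p = 0.904, edgeR).

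ENSMUSG00000028931.11 had 67.1 and 46.6 CPM in WT mitotic libraries and 2.33 and 0 CPM, again 1 read in all, in S38A mitotic libraries. The ratio of WT to S38A was 45.3, with a 95% counting interval of 7.66 to 1837 (adjusted p = 1.53e-07, edgeR). The fitted log2 difference, -5.14, was -7.27 without S38A mitotic replicate 1 and -4.38 without S38A mitotic replicate 2. Unlike the previous gene, it was present in S38D mitotic libraries, at 57.2 and 49.1 CPM. These values lay within the range of WT, and the log2 excess of S38D over S38A was 5.06 ± 0.77 (SE, adjusted p = 1.35e-06, edgeR). Asynchronous S38A libraries had 2.61 and 6.47 CPM of it, against 74.3 and 53.1 CPM in WT.

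**Figure D2:**
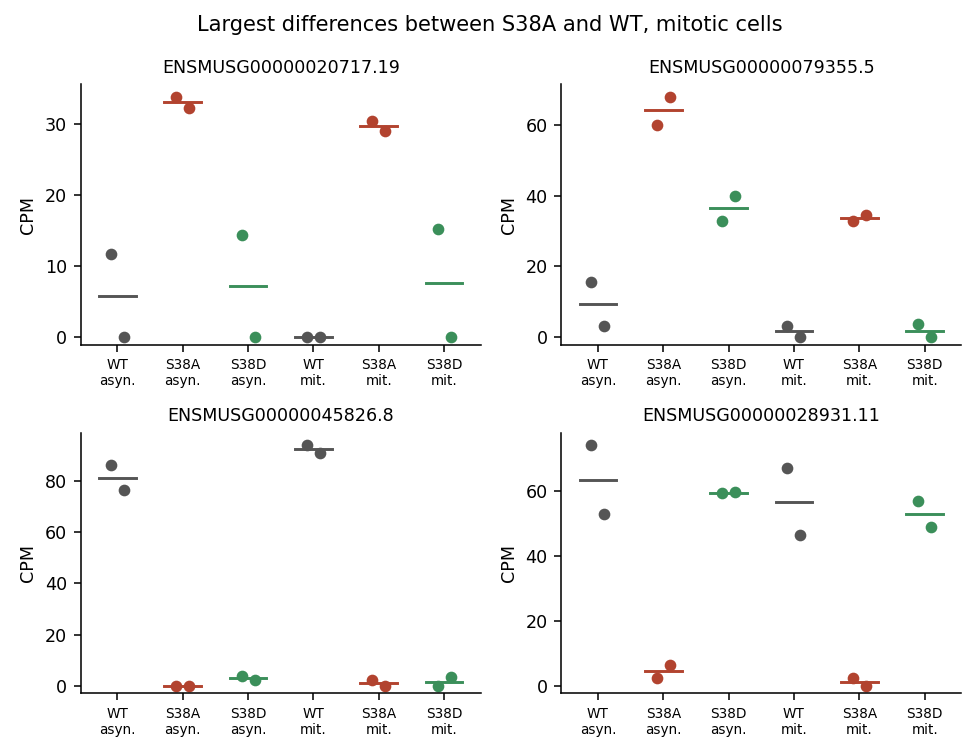
Footprint levels in CPM of the 4 genes with the largest called differences, by genotype and state, with 1 point per library and a bar at the mean of 2 libraries. In mitotic cells the top 2 genes are at 29.1 CPM or more in S38A and at 3.35 CPM or less in WT, and the bottom 2 are at 46.6 CPM or more in WT and at 2.33 CPM or less in S38A.

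These extremes rest on few reads. A gene with no reads in 1 group and at least 10 in each library of the other was rare. Of 22520 IDs, 1 had 0 reads in both WT mitotic libraries and at least 10 in each S38A mitotic library, and 1 had the reverse. The share of genes called rose with the level. It was 0 of 16 genes under 10 CPM, 4.70% of 1063 genes between 10 and 30 CPM, 7.73% of 3130 between 30 and 100 CPM, 19.8% of 1792 between 100 and 300 CPM and 34.4% of 691 genes at 300 CPM or more. The median standard error of the log2 difference fell over the same steps from 0.91 to 0.16. The median size of the called differences fell as well, from 1.97 between 10 and 30 CPM to 0.64 at 300 CPM or more. At 300 CPM or more 147 genes were called higher and 91 lower. Below 30 CPM the called genes were 27 higher and 23 lower.

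The genes called in mitosis also held different shares of each library's footprints. The 521 higher genes, which were chosen on these 4 libraries, took 10.8 and 11.0% of the tested footprints in WT and 18.4 and 18.5% in S38A mitotic libraries. The 364 lower genes took 12.1% in each WT and 6.94 and 7.07% in the S38A libraries. Libraries outside this choice gave shares in the same order. In asynchronous cells the 521 genes took 15.2 and 16.2% in WT against 21.5 and 21.0% in S38A, and the 364 genes 9.65 and 9.50% against 6.81 and 7.11%. In S38D they took 12.4 and 12.2% and 10.6 and 10.8% in mitotic libraries. These lay between WT and S38A, which the genes had been chosen to hold apart.

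The difference between S38A and WT was then followed into asynchronous cells, whose libraries are separate from the mitotic ones. Over all genes tested, the median log2 difference in asynchronous cells was 0.009. Of the 521 genes higher in mitotic S38A cells, 475 had a log2 difference above 0 in asynchronous cells, with a median of 0.52. Of the 364 lower genes, 312 were below 0 there, with a median of -0.48. The medians in mitotic cells were larger in size, but the genes had been chosen on the mitotic values. In asynchronous cells 624 genes (9.32%) were called, and 327, 262 and 406 without WT replicate 2, S38A replicate 1 or S38A replicate 2 of that state. Of the mitotic calls, 221 of 521 and 101 of 364 were called there in the same direction, and 1 and 4 in the opposite one. Of all 6692 genes, 392 were called higher and 232 lower in asynchronous S38A cells.

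The change of the difference between states was tested directly, as S38A minus WT in mitotic cells less the same in asynchronous cells. It was called for 30 of 6692 genes (0.448%; edgeR quasi-likelihood test), and 613 had an unadjusted p under 0.05. The change was positive for 10 and negative for 20. This split depended on the setting, with 15 and 16 in DESeq2, 16 and 20 with library totals as the scaling, 20 and 22 without WT asynchronous replicate 1 and 5 and 15 without WT mitotic replicate 1. Among the 20 genes with a negative change, 15 were below WT in mitotic and above it in asynchronous S38A cells. The median log2 difference of these 20 was -1.18 in mitotic and 0.22 in asynchronous cells. In mitotic cells on their own, 17 of the 20 and 7 of the 10 with a positive change were called, beside 13.2% of all genes. The genes were chosen on a change that contains the same mitotic libraries, so high shares and opposite signs follow in part from the choice. Among the 10 genes with a positive change, 6 were above WT in mitotic and below it in asynchronous cells, with medians of 0.50 and -0.34 over all 10. Median levels were 613 CPM for the positive and 336 CPM for the negative changes, and the lowest were 117 and 37.3 CPM.

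**Figure D3:**
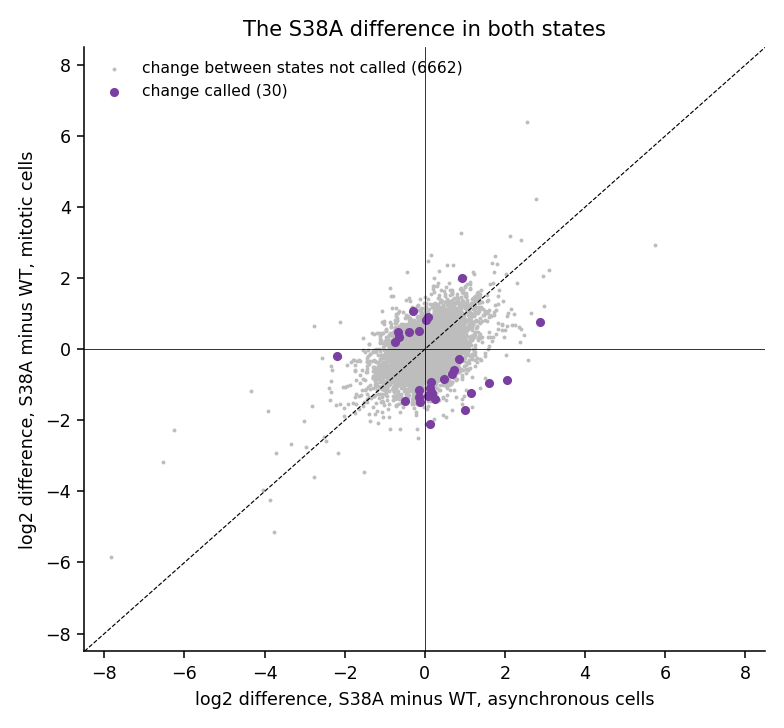
Log2 difference of S38A from WT in mitotic cells (vertical axis) against that in asynchronous cells (horizontal axis), with 1 point for each of the 6692 genes tested and a dashed line where both are equal. The 30 genes whose difference changed between states are purple, and 15 of them lie above 0 in asynchronous and below 0 in mitotic cells.

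The largest positive change among called genes was that of ENSMUSG00000056999.14. Its levels were 184 and 126 CPM in asynchronous WT and 36.5 and 29.1 CPM in asynchronous S38A libraries, but 134 and 117 CPM in mitotic WT and 119 and 98.0 CPM in mitotic S38A libraries. WT and S38A were far apart in asynchronous cells and overlapped in mitosis. The log2 change of the difference was 2.00 ± 0.40 (SE, adjusted p = 0.00209, edgeR), and the mitotic difference alone was -0.19 ± 0.24 (SE, adjusted p = 0.673, edgeR).

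ENSMUSG00000031245.8 behaved otherwise. It had 383 and 624 CPM in asynchronous WT and 370 and 469 CPM in asynchronous S38A libraries, which overlapped. In mitotic cells WT had 168 and 150.3 CPM and S38A 371 and 297 CPM, which did not. The log2 change was 1.37 ± 0.27 (SE, adjusted p = 0.00179, edgeR). Mitotic S38D libraries, at 156 and 232 CPM, lay below S38A, with a log2 difference from it of -0.78 ± 0.21 (SE, adjusted p = 0.00631, edgeR). The change was not called without WT asynchronous replicate 2 (adjusted p = 0.169) or without S38A mitotic replicate 1 (adjusted p = 0.0633).

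Among called negative changes, the largest were at low levels. ENSMUSG00000026883.17 had 23.5 and 13.3 CPM in asynchronous WT and 70.4 and 80.9 CPM in asynchronous S38A libraries. In mitotic cells it had 43.6 and 51.8 CPM in WT and 14.0 and 39.7 CPM in S38A. S38A was thus above WT in asynchronous cells and below it in mitotic cells, where the difference did not pass on its own (adjusted p = 0.175, edgeR). The log2 change was -2.92 ± 0.63 (SE, adjusted p = 0.00536, edgeR). It was not called without WT asynchronous replicate 2, WT mitotic replicate 2 or S38A mitotic replicate 1 (adjusted p = 0.0936, 0.109 and 0.133).

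ENSMUSG00000048707.9 had 46.9 and 9.95 CPM in asynchronous WT and 73.0 and 32.3 CPM in asynchronous S38A libraries. In mitotic cells it had 53.7 and 67.4 CPM in WT and 14.0 and 23.8 CPM in S38A. WT and S38A overlapped in asynchronous cells and lay apart in mitotic cells. The log2 change was -2.70 ± 0.65 (SE, adjusted p = 0.0229, edgeR), and it was not called without WT asynchronous replicate 2, S38A asynchronous replicate 1, WT mitotic replicate 2 or S38A mitotic replicate 1 (adjusted p = 0.264, 0.503, 0.196 and 0.219).

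**Figure D4:**
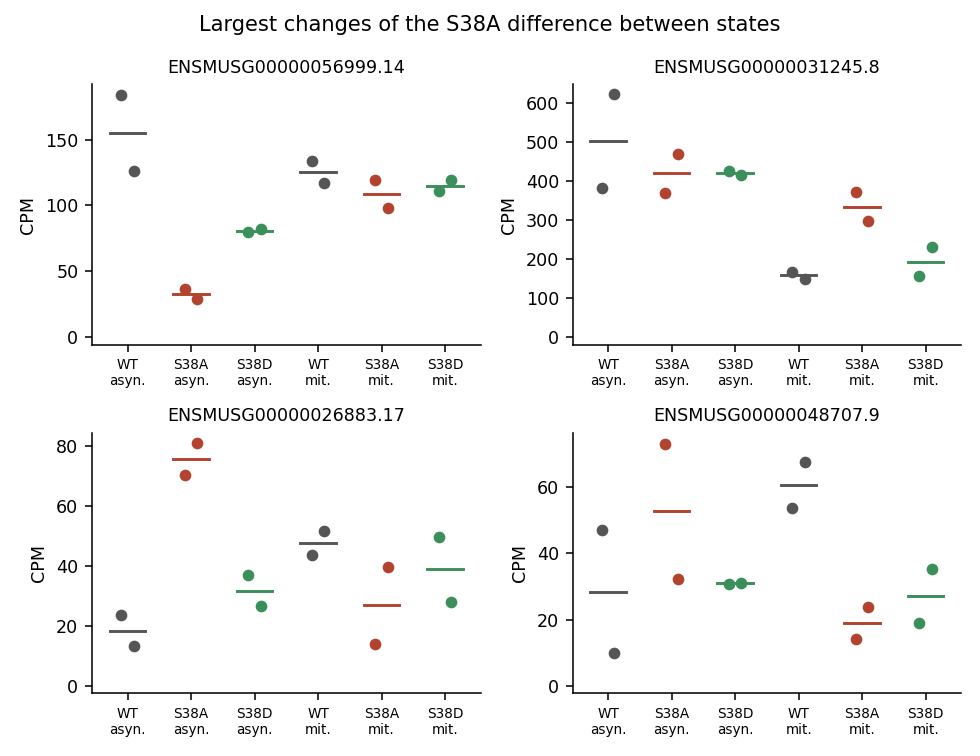
Footprint levels in CPM of the genes with the largest called changes between states, by genotype and state, with 1 point per library and a bar at the mean of 2 libraries. The top pair changed in the positive and the bottom pair in the negative direction, and for ENSMUSG00000056999.14 the S38A and WT libraries lie apart in asynchronous cells and overlap in mitotic ones.

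Cell cycle genes were followed by ID through lists drawn from the marker gene pairs of the scran package, which assign genes to G1, S or G2 and M phase. Their value as phase markers for ribosome footprints in lymphoma cells was not tested. The sums of the G2 and M list, given below, did not rise in the libraries labelled mitotic. Of the S phase list, 74 of 83 members were tested, and 17 were higher in S38A mitotic cells, 2 lower and 55 not called. These are 22.97% higher and 2.70% lower, beside 7.79 and 5.44% of all genes tested. The share called rises with level, and neither this list nor the 2 below were matched to all genes for level. The 17 became 6 in DESeq2 or without WT mitotic replicate 1, and 9 without either S38A mitotic library, and the 2 became 1 on leaving out any of the 4 libraries. Its median log2 difference was 0.33, against -0.01 over all genes tested. The members summed to 12500 and 13300 CPM in WT and 15300 and 15600 CPM in S38A mitotic libraries, which did not overlap. In asynchronous libraries the sums were 14100 and 14800 CPM in WT and 17800 and 17100 CPM in S38A.

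Of the list for G2 and M phase, 67 of 74 members were tested. In mitotic cells 16 were higher in S38A (23.9%, beside 7.79% of all genes), 2 lower (2.99%, beside 5.44%) and 49 not called, with a median of 0.12 and a range from -0.96 to 1.79. The 16 became 10 in DESeq2, 9 without S38A mitotic replicate 1 and 10 without S38A mitotic replicate 2, and the 2 became 0 without S38A mitotic replicate 1 and 1 without WT mitotic replicate 2. The members summed to 10100 and 10400 CPM in WT and 12200 and 12600 CPM in S38A mitotic libraries. Mitotic S38D libraries had 10700 and 11500 CPM, above WT and below S38A. The asynchronous sums were 12500 and 12300 CPM in WT, 15900 and 15600 CPM in S38A and 14100 CPM in each S38D library. In every genotype the mitotic sums were below the asynchronous ones, so the list did not follow the labelled state. Sums weigh abundant members most. In mitotic cells 41 of the 67 members were above 0, beside 56 of 74 in the S list and 41 of 81 in the G1 list. The median log2 difference over all genes tested was -0.01.

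In the main edgeR fit, the G1 list was called at shares near those of all genes. DESeq2 called 5 G1 members higher and 2 lower, and 6 S members higher and 1 lower. Of all genes it called 229 higher and 116 lower, so the G1 and S lists stood closer together there. Of 97 members 81 were tested, and 7 were higher in S38A mitotic cells (8.64%, beside 7.79% of all genes), 4 lower (4.94%, beside 5.44%) and 70 not called, with a median of 0.05. The 7 became 4 without S38A mitotic replicate 2, and the 4 became 2 without WT mitotic replicate 2 or S38A mitotic replicate 1. Their sums were 14300 and 14700 CPM in WT and 14000 and 13700 CPM in S38A mitotic libraries. The lower sum in S38A rested on 1 abundant member, at 1770 and 1820 CPM in WT and 848 and 829 CPM in S38A. Without it the sums were 12500 and 12800 CPM in WT and 13200 and 12800 CPM in S38A. The change of the difference between states was called for 1 of the 81 G1 genes (edgeR quasi-likelihood test). It was called for 0 of the 74 S and 0 of the 67 G2 and M genes, beside 0.448% of all genes. Unadjusted p was under 0.05 for 8, 8 and 6 members of the G1, S and G2 and M lists, beside 613 of all 6692 genes.

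**Figure D5:**
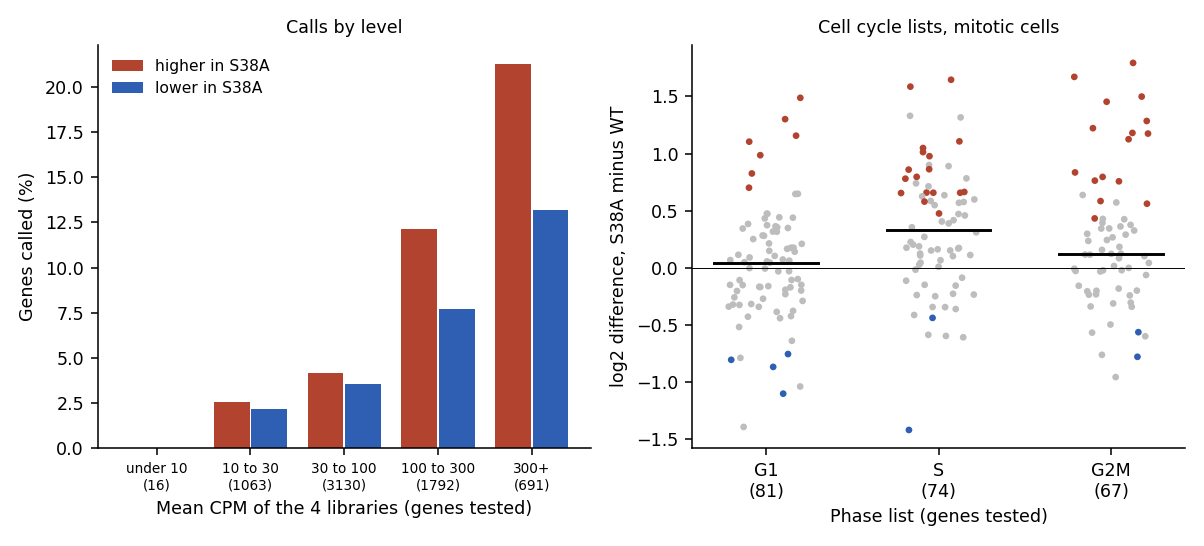
Left, the percent of genes called higher or lower in S38A mitotic cells, by mean level of the 4 libraries in CPM, with the number of genes tested under each pair of bars; the share called is 34.4% at 300 CPM or more and 4.70% between 10 and 30 CPM. Right, the log2 difference of each tested member of the G1, S and G2M lists, with called members red or blue and a bar at the median of 0.05, 0.33 and 0.12.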

How the data were processed

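The authors deposited whole-number read counts per gene ID, 1 table a library, not normalized. The submitters' processing notes list HTSeq 0.9.1, STAR 2.5.3a, DESeq2 1.18.1, Bowtie2 2.3.2 and bcl2fastq 2.16.0.10 with build mm10, without roles. Counting over coding sequence is stated only by the file naming. For strand use and the collapsing of identical reads, the sources used here give nothing. Intervals and floors hold for counting error only. Overlapping or near-identical genes may share reads. The 5 summary rows stayed out of library sizes and tests.

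Counts of all 12 libraries entered 1 edgeR 4.0.16 fit (R 4.3.3) with TMM scaling, 6 groups and quasi-likelihood tests, which pools the spread over the groups of 2. DESeq2 1.42.0 was an alternative. The filter filterByExpr with a minimum count of 10 kept 6692 of the 11680 IDs with a read. Benjamini-Hochberg adjusted p under 0.05 over all genes tested made a call. Standard errors are the log2 difference over the square root of F, and CPM are scaled to the tested genes' reads after TMM. Ratios against 0 to 3 reads use all coding reads, with exact binomial 95% intervals.

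The reference table paired 0 of 22520 IDs with a symbol, so 55 gene lists drawn up by symbol, marker lists included, could not be applied. The naming rule (called, 10 CPM or more on average in the 4 libraries and, for the mitotic difference, groups that do not overlap) was reduced to the 2 largest in each direction of the mitotic difference and of its change between states. A phase list (scran 1.30.0) holds genes that come first on balance in the pairs of 1 phase and second in both others. The 4 libraries were chosen by label, but comparisons and lists were chosen with earlier results of these data known. On simulated counts for 6692 genes with 200 changed, 2% of log2 changes of 0.5, 47.5% of log2 changes of 1 and 88.5% of log2 changes of 2 were recovered for S38A against WT in mitotic cells. For the change between states, 0.5, 23.5 and 69% of these sizes were recovered. Each simulation changed its 200 genes by 1 size, while 885 genes of many sizes were called in the data, so recovery in the data may differ.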

Additional observations from a re-analysis of the deposited data

Results flagged for a closer look

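The difference between S38A and WT differed between mitotic and asynchronous cells for 30 genes, by a test of the change itself (edgeR quasi-likelihood test, adjusted p under 0.05). The log2 changes of the 4 genes named for it were 2.00 for ENSMUSG00000056999.14, 1.37 for ENSMUSG00000031245.8, -2.92 for ENSMUSG00000026883.17 and -2.70 for ENSMUSG00000048707.9, and they were chosen for their size.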

How the results depend on the processing

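In mitotic cells S38A against WT gave 885 calls (521 higher, 364 lower). DESeq2, run on genes with at least 1 read, gave 345 (229 higher, 116 lower), all in the edgeR set and direction, and had no adjusted p for 127 of the 885. A test against a 1.5-fold difference gave 157 (102 and 55). Leaving out 1 library gave 443 to 550 (284 to 330 higher, 159 to 220 lower), lowest without S38A mitotic replicate 1, and 467, 471 and 550 without WT mitotic replicate 2, WT mitotic replicate 1 and S38A mitotic replicate 2. The other settings (both scalings, both filters, fewer libraries in the fit, the replicate block) gave 805 to 1065 calls, and no called gene changed sign in any setting. With the replicate number as a block 823 were called. The labels do not state that the numbers pair samples. Deviations of same-numbered mitotic WT and S38A libraries correlated at -0.04, and those of all pairs of groups at -0.23 to 0.09. With 2 libraries a group, these values cannot show whether same-numbered libraries were prepared together. In asynchronous cells the count was 624, with 239 by DESeq2, 98 against 1.5-fold and 262 to 422 on leaving out 1 library. The change between states was called for 30 genes, for 4 against 1.5-fold, all of them negative, and for 20 to 42 on leaving out 1 library. S38D minus WT in mitotic cells gave 122, with 65 by DESeq2, 228 and 215 with only the 4 compared or the 6 mitotic libraries fitted, 14 against 1.5-fold and 39 to 60 on leaving out 1 library. S38D minus S38A gave 864, with 353, 96 and 371 to 487 by DESeq2, 1.5-fold and leaving out 1 library. The cause was not tested. The change between states was not refitted with mitotic or compared libraries alone, since it needs all 4 groups.

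The direction of the 8 named genes held in every setting that gave a value. DESeq2 gave no adjusted p for 7 of them, all but ENSMUSG00000031245.8. Against 1.5-fold the named changes between states lost their call. The members called higher in mitotic cells were then 2 of 74 for S, 6 of 67 for G2 and M phase and 3 of 81 for G1. Of all 6692 genes, 102 were called higher in that test. Without the member that differed most in CPM, an alternative chosen after seeing the data, the sum of S38A exceeded that of WT in mitotic cells by 2200 CPM for the S list (2550 with it), 1705 CPM for G2 and M (2150 with it) and 350 CPM for G1 (-650 with it). Depth limits the extremes, since 3 reads are 6.81 to 9.99 CPM of all coding reads in the 4 libraries.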
